A study of Mus musculus with 8 samples.

Results

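Tubulins are the subunits of microtubules, and 10 mouse tubulin genes were followed from late meiosis into the haploid phase of sperm formation. They were the alpha-tubulin genes Tuba1a, Tuba1b, Tuba3a, Tuba4a and Tuba8, the beta-tubulin genes Tubb2a, Tubb3, Tubb5 and Tubb6, and the gamma-tubulin gene Tubg1, taken as a list of gene names. A probe set, the group of array probes that reports a transcript, was kept when the platform annotation gives it exactly 1 gene and that gene is a member of the list. This left 14 of the 45037 probe sets on the array, for 8 of the 10 genes. The 4 probe sets left out name another gene beside a member. They were the only ones for Tuba1b and Tuba3a, for which no value is given.

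The study asked how loss of HR6B, a ubiquitin-conjugating enzyme encoded by Ube2b, alters gene expression in male germ cells. RNA came from purified round spermatids of Hr6b-/- mice (knockout), round spermatids of Hr6b+/+ mice (wild type), late spermatocytes of Hr6b-/- mice and late spermatocytes of Hr6b+/+ mice, all males of 4 to 5 weeks on an FVB background. Each of these 4 groups has 2 Affymetrix arrays, 8 in total. The deletion is present in every cell of the knockout mice, knockout and wild type males were born to separate crosses, and the number of mice behind an array was not given, so a p-value here reflects only how far these samples scatter, which may be technical.

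Alpha- and beta-tubulin form the heterodimer that polymerises into microtubules, and gamma-tubulin sits in the ring complexes from which microtubules grow. Male germ cells use microtubules for the meiotic spindle, then for the manchette that surrounds the elongating spermatid nucleus, and for the axoneme of the sperm tail. Mammals encode several tubulin isotypes, which differ mainly in their C-terminal tails, where most tubulin modifications are made.

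The promoters of isotypes with opposite stage patterns are shown first, because the results below turn on these genes. Promoter sequences were found for 8 of the 10 genes in a table made from RefSeq (build GRCm38.p6). These are not the 8 genes with array values, since they include Tuba1b and Tuba3a and lack Tubb6 and Tubg1. Each run holds the 250 bases before the annotated start, read 5′ to 3′ on the strand of the gene, and capitals mark matches on either strand to the TATA core TATAA, the CCAAT box CCAAT, the cyclic AMP response element TGACGTCA and the GC box GGGCGG. Tuba8 and Tubb2a were high in spermatids, and Tuba1a and Tubb5 were high in spermatocytes.
Tuba8, chr6:121210484-121210733, plus strand: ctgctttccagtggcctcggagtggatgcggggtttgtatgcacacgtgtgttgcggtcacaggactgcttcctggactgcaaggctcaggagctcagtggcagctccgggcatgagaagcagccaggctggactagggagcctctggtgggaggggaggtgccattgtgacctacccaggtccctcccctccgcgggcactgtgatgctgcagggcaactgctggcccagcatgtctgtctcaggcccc
Tubb2a, chr13:34078009-34078258, minus strand: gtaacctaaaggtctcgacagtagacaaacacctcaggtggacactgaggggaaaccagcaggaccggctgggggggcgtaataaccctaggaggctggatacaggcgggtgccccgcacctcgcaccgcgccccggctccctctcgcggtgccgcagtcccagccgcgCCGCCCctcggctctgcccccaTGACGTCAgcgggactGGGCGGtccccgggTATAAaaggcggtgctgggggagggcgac
Tuba1a, chr15:98953502-98953751, minus strand: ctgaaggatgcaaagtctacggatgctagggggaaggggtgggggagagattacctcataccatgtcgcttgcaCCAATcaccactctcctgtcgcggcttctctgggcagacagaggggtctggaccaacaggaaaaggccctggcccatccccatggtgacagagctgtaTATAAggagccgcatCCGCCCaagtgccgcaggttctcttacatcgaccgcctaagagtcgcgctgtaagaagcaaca
Tubb5, chr17:35838302-35838551, minus strand: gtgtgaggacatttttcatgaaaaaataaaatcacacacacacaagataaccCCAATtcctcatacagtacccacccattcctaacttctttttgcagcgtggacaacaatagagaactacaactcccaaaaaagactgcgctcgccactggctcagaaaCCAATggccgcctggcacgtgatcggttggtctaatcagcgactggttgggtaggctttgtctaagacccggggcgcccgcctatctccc

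The Tubb2a promoter held the palindromic TGACGTCA, which starts 59 bases before the annotated start, and a TATAA 29 bases before it. These letters, the site bound by CREB and CREM factors, were found in 1.55% of 32851 mouse promoters of the same length and in 1 of the 8 tubulin promoters. TATAA was in 22.8% of all promoters and in 3 of the 8, namely those of Tuba1a, Tubb2a and Tubb3. CCAAT was in 33.8% of all promoters and in 4 of the 8, among them Tuba1a and Tubb5, and GGGCGG was in 32.7% and in 6 of the 8. Among these 6 is Tuba4a, whose window is not shown because its annotated start lies inside the span of the gene, so that the window may hold transcribed sequence. None of the 4 motifs was in the Tuba8 window. These matches describe the letters in the window and not a site in use.

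Ube2b checked the genotype labels. Its brightest probe set had signals of 951 and 1061 in knockout spermatids, against 4599.5 and 4612 in wild type spermatids, and of 833 and 824 in knockout spermatocytes, against 2855 and 3349 in wild type spermatocytes. Signal stands here for the deposited log2 value on the linear scale, in arbitrary units. Round spermatid markers checked the stage labels, since 20 of 21 were higher and 1 was lower in spermatids in each genotype. Of all genes, 41.6% were higher in knockout and 33.7% in wild type spermatids. Of 23 spermatocyte markers, 14 were lower in spermatids in each genotype, beside 31.1% of all genes in knockout and 29.4% in wild type cells. Against this direction, 5 spermatocyte markers were higher in knockout and 4 in wild type spermatids. A signal of 100 or more was reached by 33.2% to 35.4% of probe sets per array, and the r of replicate arrays over all probe sets, which do not vary independently, was 0.995 to 0.997. Among the 17597 probe sets with a signal of 100 or more on at least 4 arrays, the median log2 value differed by -0.18 for knockout minus wild type spermatids, by 0.033 for knockout minus wild type spermatocytes, and for spermatids minus spermatocytes by -0.53 in knockout and -0.32 in wild type cells. A change in a tubulin gene therefore reads relative to these shifts. In cell fractions of this kind, fewer cells of a type and less RNA per cell cannot be told apart.

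Between meiosis and the haploid phase the tubulin genes moved in different directions. Tuba4a, Tuba8, Tubb2a and Tubb6 were 20.3- to 44.3-fold higher in wild type spermatids than in wild type spermatocytes, folds that for Tuba8, Tubb2a and Tubb6 rest on wild type spermatocyte signals under 100 and are uncertain in size. Tuba1a and Tubb5 were 3.17-fold and 2.74-fold lower in wild type spermatids, and Tubg1 did not pass the test. Tubb3, which was dim in all groups, was called lower in wild type spermatids and higher in knockout spermatids than in the spermatocytes of the same genotype. Of the 14 probe sets, 7 were higher and 3 were lower in wild type spermatids at an adjusted p under 0.05 (limma with Benjamini-Hochberg adjustment over all 45037 probe sets), where 26% of all probe sets were higher and 27.3% were lower. In the knockout, 9 were higher and 2 were lower, where 34.2% and 28.7% of all probe sets were. By gene, 5 of 8 were higher and 2 were lower in knockout spermatids, beside 41.6% and 31.1% of all genes, and 4 were higher and 3 were lower in wild type spermatids, beside 33.7% and 29.4%. The median log2 fold change over the 14 was 0.85 in knockout and 0.55 in wild type cells, beside 0.14 and 0.096 over all probe sets.

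**Figure D1:**
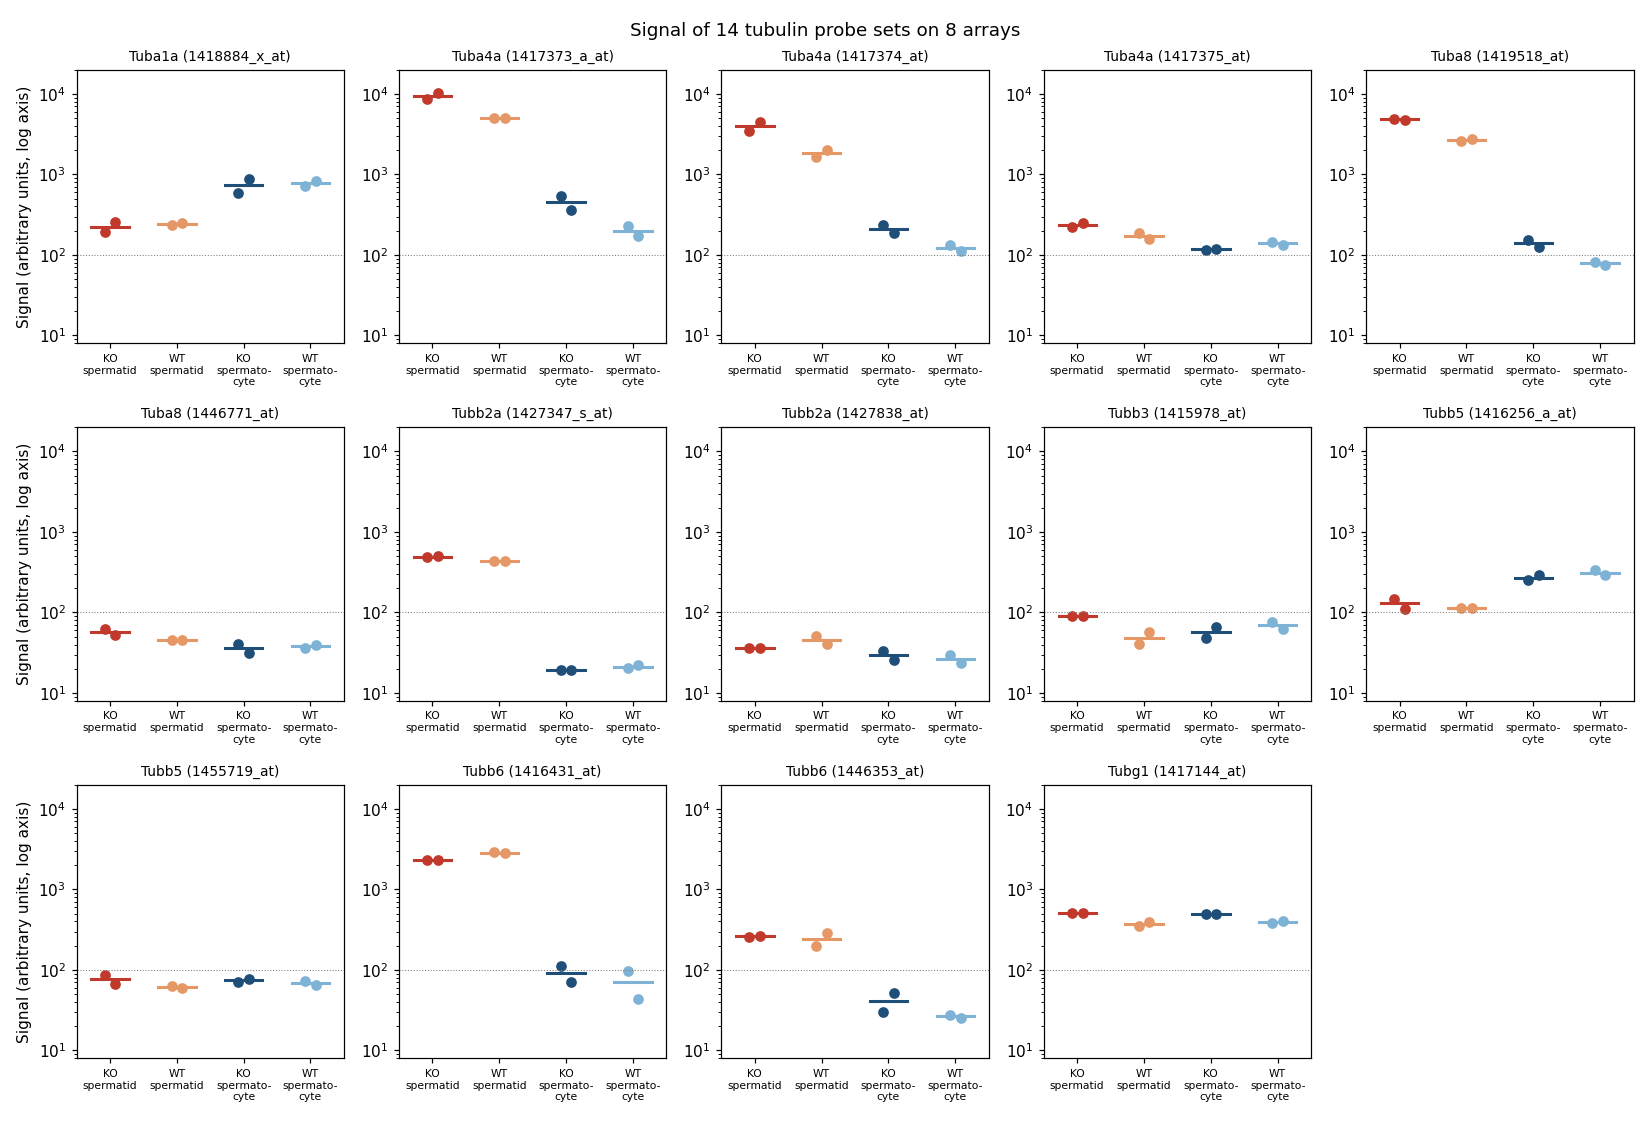
Signal (arbitrary units, log axis) of the 14 tubulin probe sets on the 8 arrays, in knockout and wild type spermatids and in knockout and wild type spermatocytes. Points are arrays, bars are group means, and the dotted line marks a signal of 100: the brightest probe sets of Tuba4a, Tuba8, Tubb2a and Tubb6 drop from left to right across the stages, while those of Tuba1a and Tubb5 climb.

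Tuba4a, which encodes an alpha-tubulin without the usual C-terminal tyrosine codon, reached the highest spermatid signals of its own 3 probe sets on 1417373_a_at. There it had 8642 and 10141 in knockout spermatids, 5091 and 5079 in wild type spermatids, 540.2 and 359 in knockout spermatocytes, and 229 and 169.6 in wild type spermatocytes. The 4 groups did not overlap, and both spermatid groups lay far above both spermatocyte groups. The log2 fold change of spermatids over spermatocytes was 4.41 in the knockout (standard error 0.20, adjusted p = 2.54e-08) and 4.69 in wild type (standard error 0.20, adjusted p = 1.71e-08). A second probe set, 1417374_at, gave 4.22 in knockout and 3.89 in wild type cells. The dimmest, 1417375_at, had mean signals of 237 in knockout spermatids, 173 in wild type spermatids, 117 in knockout spermatocytes and 139 in wild type spermatocytes, so that the probe sets of this gene disagree on the size of the stage difference. Its log2 fold change was 1.01 in the knockout (adjusted p = 5.35e-05) and 0.32 in wild type (adjusted p = 0.0603, not past the test).

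Tuba8 encodes a divergent alpha-tubulin. On 1419518_at it had signals of 4905 and 4798 in knockout spermatids, 2624 and 2767 in wild type spermatids, 155.5 and 127 in knockout spermatocytes, and 82.0 and 76.0 in wild type spermatocytes. The order of the groups was the same as for Tuba4a, again without overlap between neighbours. Spermatids exceeded spermatocytes by a log2 fold change of 5.11 in the knockout (standard error 0.13, adjusted p = 3.51e-09) and 5.09 in wild type (standard error 0.13, adjusted p = 1.53e-09). The other Tuba8 probe set, 1446771_at, stayed under 63 on all 8 arrays and was higher in knockout spermatids than in knockout spermatocytes (0.70, adjusted p = 0.00165). In wild type it had 0.26 (adjusted p = 0.157, not past the test), so the 2 probe sets disagree on the size of the stage difference.

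Tuba1a, an alpha-tubulin abundant in the developing nervous system, showed the opposite pattern. Its probe set 1418884_x_at had 195 and 254 in knockout spermatids, 236 and 252 in wild type spermatids, 592 and 878 in knockout spermatocytes, and 722 and 829 in wild type spermatocytes. All 4 spermatocyte arrays lay above all 4 spermatid arrays, and the genotypes overlapped at each stage. The log2 fold change of spermatids over spermatocytes was -1.70 in the knockout (standard error 0.19, adjusted p = 2.44e-05) and -1.67 in wild type (standard error 0.19, adjusted p = 3.04e-05). The ending _x of this identifier marks probes that can match similar transcripts, so signal from other alpha-tubulin genes cannot be told apart on it.

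Tubb6, a class V beta-tubulin, was high in spermatids. Its probe set 1416431_at had 2303 and 2298 in knockout spermatids, 2888 and 2858 in wild type spermatids, 113 and 70.6 in knockout spermatocytes, and 95.9 and 43.9 in wild type spermatocytes. The spermatid groups stood apart from each other and from the spermatocytes, whose genotypes overlapped. The stage difference was 4.69 in the knockout (standard error 0.31, adjusted p = 3.7e-07) and 5.47 in wild type (standard error 0.31, adjusted p = 1.29e-07), and 1446353_at gave 2.72 in knockout and 3.17 in wild type cells.

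Tubb2a, a beta-tubulin that is abundant in neurons, had 494 and 496 on 1427347_s_at in knockout spermatids and 429 and 437 in wild type spermatids. The spermatocyte arrays were near the bottom of the scale, with 19.3 and 19.1 in knockout cells and 20.5 and 22.1 in wild type cells. No groups overlapped, and the replicates lay close to each other in all 4 groups. Spermatids exceeded spermatocytes by 4.69 in the knockout (standard error 0.11, adjusted p = 3.51e-09) and 4.35 in wild type (standard error 0.11, adjusted p = 1.53e-09). Detection calls were not used here, so a signal of this size does not show that the transcript was absent. Probe sets with the ending _s can match more than 1 gene, and Tubb2b, the close paralog, had mean signals of 13.2 in knockout spermatids, 10.8 in wild type spermatids, 10.8 in knockout spermatocytes and 9.80 in wild type spermatocytes on a probe set of its own. The second Tubb2a probe set, 1427838_at, was under 51 on all arrays and gave 0.31 in the knockout (adjusted p = 0.122) and 0.78 in wild type (adjusted p = 0.00229).

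Tubb5, a beta-tubulin of dividing cells, was lower in spermatids. Its brighter probe set 1416256_a_at had 148 and 112 in knockout spermatids, 115 and 113 in wild type spermatids, 250.2 and 292 in knockout spermatocytes, and 333 and 293 in wild type spermatocytes. The stages did not overlap, whereas the spermatid genotypes did. The log2 fold change was -1.07 in the knockout (standard error 0.15, adjusted p = 0.000141) and -1.45 in wild type (standard error 0.15, adjusted p = 1.47e-05). The dimmer probe set, 1455719_at, gave 0.02 in the knockout and -0.15 in wild type cells and did not pass the test in either genotype.

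Tubg1 encodes gamma-tubulin. It had 514 and 507 in knockout spermatids, 351 and 397 in wild type spermatids, 502 and 499 in knockout spermatocytes, and 388 and 407 in wild type spermatocytes. Both knockout groups lay above both wild type groups, and the wild type stages overlapped. The stage difference was 0.03 in the knockout (95% interval -0.22 to 0.28, adjusted p = 0.836) and -0.09 in wild type (95% interval -0.34 to 0.16, adjusted p = 0.523). Under cyclic loess normalization it was 0.73 in the knockout (adjusted p = 0.000284) and 0.35 in wild type (adjusted p = 0.0239), so the direction in wild type turned. In the knockout it also passed with quantile normalization (0.50, adjusted p = 0.00294) and with equal medians of expressed probe sets (0.56, adjusted p = 0.00105). In wild type those scalings gave 0.20 and 0.23, which did not pass.

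**Figure D2:**
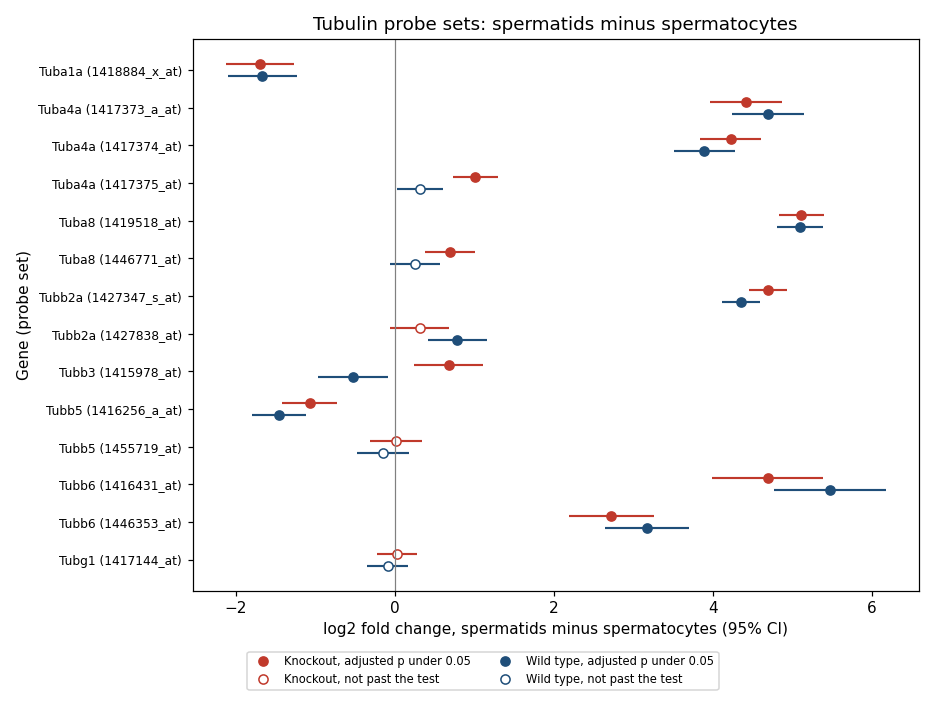
Log2 fold change of spermatids over spermatocytes with its 95% interval for each tubulin probe set, in the knockout and in wild type. Filled points passed the test at an adjusted p under 0.05, and the probe sets with changes above 2.5 belong to Tuba4a, Tuba8, Tubb2a and Tubb6 in both genotypes.

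In spermatids without HR6B, 2 alpha-tubulins and the gamma-tubulin were called higher, and none of the 8 measured genes fell past the test. The call of the gamma-tubulin did not hold in all alternatives. Tuba4a was 1.84-fold and Tuba8 1.80-fold higher in knockout spermatids, on probe sets that are already bright in wild type. Tubg1 was 1.37-fold higher, and the dim probe set of Tubb3 was 1.89-fold higher. In all, 6 of the 14 probe sets were higher and 0 were lower at an adjusted p under 0.05 from limma, where 4.83% of all probe sets were higher and 9.63% were lower. By gene, 4 of 8 were higher and 0 were lower, where 6.93% and 12.9% of the 18193 genes on the array were. The knockout arrays lay above the wild type arrays without overlap for 9 probe sets and below them for 2, shares to be read against 28.1% and 27.4% of all probe sets. The median log2 fold change was 0.32 over the 14 probe sets and 0.021 over all.

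Tuba4a gave a log2 fold change of 0.88 on 1417373_a_at (standard error 0.20, adjusted p = 0.0176). On 1417374_at, the signals were 3503 and 4415 in knockout spermatids, against 1654 and 1989.7 in wild type spermatids, a change of 1.12 (standard error 0.17, adjusted p = 0.00275). The third probe set, 1417375_at, had 223 and 250.2 in knockout spermatids, against 187 and 159 in wild type spermatids, a change of 0.45 (adjusted p = 0.0408). On all 3 probe sets the knockout arrays lay above the wild type arrays. Tuba8 changed by 0.85 on 1419518_at (standard error 0.13, adjusted p = 0.00254), and its dim probe set had 0.35 (adjusted p = 0.138, not past the test). The calls of 1417374_at for Tuba4a and 1419518_at for Tuba8 held in each of the alternatives run, including without each array in turn. That of 1417373_a_at did not hold without any of the 4 spermatid arrays, with adjusted p between 0.0612 and 0.101. That of 1417375_at did not hold without any of the 4 spermatid arrays or either knockout spermatocyte array (adjusted p between 0.0559 and 0.223), with an intensity trend in the prior (0.0562) or with the 4 spermatid arrays alone (0.0717).

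Tubg1 changed by 0.45 (standard error 0.11, adjusted p = 0.0254), and with the 4 spermatid arrays alone it did not pass (adjusted p = 0.0538). Tubb3, the class III beta-tubulin best known from neurons, was under 100 on all 8 arrays. It had 90.4 and 90.9 in knockout spermatids, 40.5 and 56.6 in wild type spermatids, 48.4 and 66.5 in knockout spermatocytes, and 76.9 and 61.9 in wild type spermatocytes. The knockout spermatid arrays were above all others, and the neighbours below them overlapped in part. The change in spermatids was 0.92 (standard error 0.20, adjusted p = 0.0126). The Tubb3 and Tubg1 calls were both lost without knockout spermatid array 1, knockout spermatid array 2 or wild type spermatid array 1, where 2 of the 14 probe sets passed in each case, and 4 passed without wild type spermatid array 2.

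The remaining beta-tubulins and Tuba1a did not pass the test between spermatid genotypes. Tubb6 had -0.32 on its bright probe set (95% interval -1.02 to 0.38, adjusted p = 0.564) although its knockout and wild type arrays did not overlap. On their brighter probe sets Tubb2a had 0.19 (95% interval -0.05 to 0.43) and Tubb5 had 0.17 (95% interval -0.17 to 0.52). Tuba1a had -0.13 (95% interval -0.56 to 0.30). The Tuba1a value turned positive, 0.033 to 0.11, under each of the 3 other scalings tried, and the Tubb2a value became 0.38 (adjusted p = 0.0414) with equal medians of expressed probe sets. With that scaling, 8 of the 14 probe sets were higher and 0 were lower. With the deposited values, the dimmer probe sets had 0.13 for Tubb6 (1446353_at), -0.33 for Tubb2a (1427838_at) and 0.30 for Tubb5 (1455719_at). None of them passed, and for Tubb6 and Tubb2a the direction differed from that of the brighter probe set.

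Markers of other testis cells were also called between the spermatid genotypes, where 6.93% of all genes were higher and 12.9% were lower, and their part in these results was not tested. Of 23 Sertoli cell markers, 7 were higher and 1 was lower in knockout spermatids, and their summed signal was 2487 to 2556 in knockout spermatids, against 1982 to 2053 in wild type spermatids. It was 10147 to 12707 in knockout spermatocytes and 10147 to 12791 in wild type spermatocytes, and 11 of the 23, among them Sox9, Wt1, Gata4 and Fshr, had a mean signal under 100 in all 4 groups. Peritubular and endothelial markers summed to 8204 to 8421 in knockout spermatids and 5704 to 6070.3 in wild type spermatids, with 3 of 17 higher, 1 lower and 9 under 100 in all groups. Immune and blood markers summed to 1098.5 to 1103 in knockout spermatids and 822 to 824 in wild type spermatids, with 3 of 13 higher and 10 under 100. Spermatocyte markers summed to 69174 to 73115 in knockout spermatids and 75713 to 76455 in wild type spermatids, with 0 of 23 higher, 5 lower and 1 under 100 in all groups. Spermatogonia markers summed to 2319 to 2546 in knockout spermatids and 2311 to 2437 in wild type spermatids, with 2 of 15 higher, 0 lower and 8 under 100. No Leydig cell marker of 8 passed the test. Of the 21 round spermatid markers 3 were higher and 1 was lower, and their summed signal was 270418 to 272461 in knockout spermatids, against 217861 to 223617 in wild type spermatids.

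In knockout spermatocytes the same alpha-tubulins stood out, at far lower signals. Tuba4a was 2.23-fold higher than in wild type spermatocytes on 1417373_a_at (log2 fold change 1.16, standard error 0.20, adjusted p = 0.021) and Tuba8 was 1.78-fold higher on 1419518_at (0.83, standard error 0.13, adjusted p = 0.0116). These were 2 of the 14 probe sets, with 0 lower, where 1.18% of all probe sets were higher and 0.413% were lower. By gene, 2 of 8 were higher and 0 were lower, where 2.22% and 0.511% of all genes were. On 1417374_at, Tuba4a had 237 and 187 in knockout spermatocytes, against 133 and 112 in wild type spermatocytes, a change of 0.79 (adjusted p = 0.0572, not past the test), and on 1417375_at it had -0.24. The dim Tuba8 probe set, 1446771_at, had -0.09 (adjusted p = 0.907, not past the test). Knockout arrays lay above wild type arrays for 5 probe sets and below them for 3, beside 19.7% and 21.7% of all probe sets.

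Tubb6 had 0.46 on 1416431_at (95% interval -0.24 to 1.16) and 0.57 on 1446353_at (adjusted p = 0.404), Tubg1 had 0.33 (95% interval 0.08 to 0.58, adjusted p = 0.259), and Tubb2a had -0.15 (95% interval -0.39 to 0.09). Tuba1a, Tubb3 and Tubb5 had -0.10, -0.28 and -0.21, and none passed the test. The dimmer probe sets of Tubb2a (1427838_at) and Tubb5 (1455719_at) had 0.14 and 0.13 and did not pass. For both genes this direction differed from that of the brighter probe set. The 2 calls rest on few arrays. Without knockout spermatocyte array 1, without wild type spermatocyte array 2, or with the 4 spermatocyte arrays fitted alone, 0 of the 14 probe sets passed in limma.

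Round spermatid markers moved in the same direction in these arrays, and their part in the result was not tested. Of 21 such markers 12 were higher and 0 were lower in knockout spermatocytes, with a median log2 fold change of 1.65, beside -0.00035 over all genes. Their summed signal was 48395 and 37764 in knockout spermatocytes, against 22238 and 16466 in wild type spermatocytes. Array 1 of each genotype was the higher for this sum, for Tuba4a on 1417373_a_at and for Tuba8 on 1419518_at. The gain of mean signal in knockout over wild type spermatocytes, as a share of the signal in knockout spermatids, was 2.66% for Tuba4a, 1.28% for Tuba8, 0.946% for Tubb6 and -0.425% for Tubb2a. Over the 21 markers the median of this share was 3.6%, with a range of -10.8% to 20.4%. Of 15 spermatogonia markers 0 were higher and 2 were lower in knockout spermatocytes, beside 2.22% and 0.511% of all genes. Their summed signal was 11770 to 12732 in knockout and 12850 to 15807 in wild type spermatocytes. Of 17 peritubular and endothelial markers and of 23 spermatocyte markers, 1 each was higher and 0 were lower. No Sertoli cell marker of 23, Leydig cell marker of 8 or immune and blood marker of 13 passed the test between the spermatocyte genotypes.

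**Figure D3:**
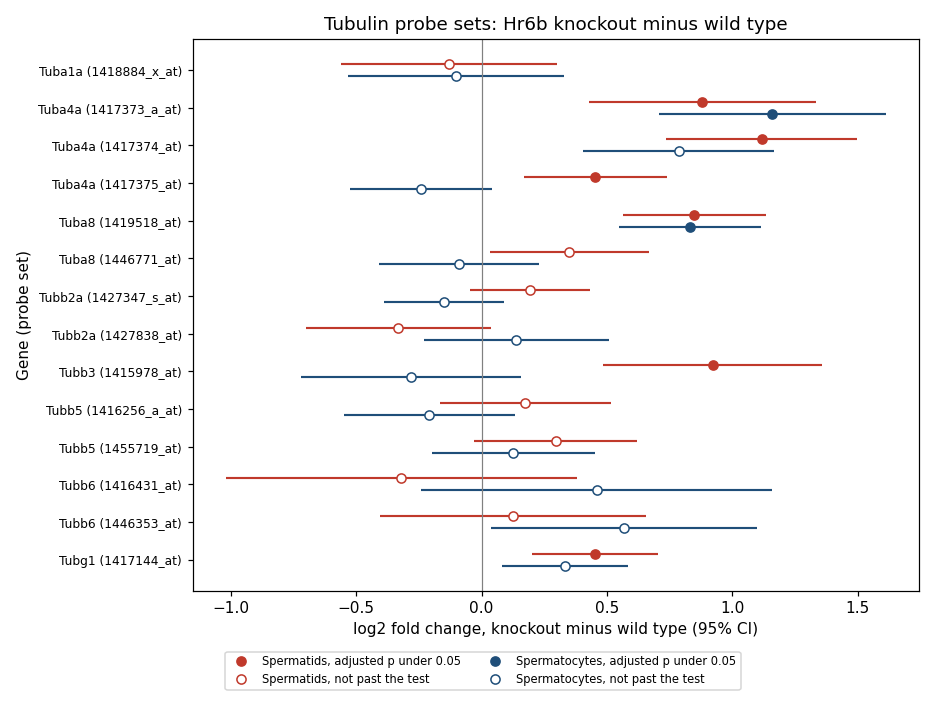
Log2 fold change of knockout over wild type with its 95% interval for each tubulin probe set, in spermatids and in spermatocytes. Filled points passed the test at an adjusted p under 0.05: these are 6 probe sets of Tuba4a, Tuba8, Tubb3 and Tubg1 in spermatids and 1 probe set each of Tuba4a and Tuba8 in spermatocytes.

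The effect of the knockout was compared between the stages with an interaction term. It passed the test for 1 of the 14 probe sets, Tubb3, whose knockout effect was 1.20 log2 units higher in spermatids than in spermatocytes (standard error 0.28, adjusted p = 0.0414), where 1.46% of all probe sets had a higher and 3.14% a lower effect in spermatids. Tubb3 was also the only member called in opposite directions between the stages of the 2 genotypes, with 0.68 in the knockout (adjusted p = 0.0124) and -0.53 in wild type (adjusted p = 0.0444). The knockout stage call was lost without either knockout spermatid array or knockout spermatocyte array 1 (adjusted p between 0.0518 and 0.117). The wild type stage call was lost without either knockout spermatid array, wild type spermatid array 1 or wild type spermatocyte array 1 (adjusted p between 0.0636 and 0.309), and with the 4 wild type arrays alone (adjusted p = 0.0553). For Tuba8 the effects differed by 0.02 (95% interval -0.39 to 0.42) and for Tuba4a on 1417373_a_at by -0.28 (95% interval -0.92 to 0.36). For 1417375_at of Tuba4a the difference was 0.70 (adjusted p = 0.0578). The Tubb3 call was lost without 6 of the 8 arrays, each left out alone, namely all but wild type spermatid array 2 and wild type spermatocyte array 2. It was also lost under cyclic loess normalization (adjusted p = 0.0694), and with equal medians of expressed probe sets the stage difference of Tubb3 in wild type was -0.21 and no longer passed. Without wild type spermatocyte array 1, Tubb6 passed in place of Tubb3, with -1.34 on 1416431_at (adjusted p = 0.0385).

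Genes with the most similar profile over the 8 arrays were found by the root mean square difference of log2 values, each probe set centred on its own mean, among 10763 genes. Nearest to Tuba4a was Ccdc91 at 0.0841, then Tex37 at 0.112 and Smim23 at 0.114, and nearest to Tuba8 was Sh3kbp1 at 0.11, then Tmem144 at 0.144 and Cct8l1 at 0.15. Catsper1, a sperm ion channel gene, was nearest to Tubb6 at 0.18, and Spata31d1d was nearest to Tubb2a at 0.139. For the genes that were high in spermatocytes, Nipsnap3b was nearest to Tuba1a at 0.0816 and Pmp2 to Tubb5 at 0.103. Mkrn2 was nearest to Tubg1 at 0.0557. These 8 arrays share their groups, so the distances are a description.

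Other tubulin genes were counted by their brightest probe set. Of 8 such genes, 5 were higher and 2 were lower in knockout spermatids than in knockout spermatocytes, where 41.6% and 31.1% of all genes were, and 0 were higher and 2 were lower in wild type spermatids than in wild type spermatocytes, where 33.7% and 29.4% were. Only 3 of the 8 reached a mean signal of 100 in a group. The 5 called higher in the knockout, Tuba3b, Tubb4a, Tubb1, Tubg2 and Tubb2b, stayed under 100 in all groups. Tubb4b, a beta-tubulin of ciliary axonemes, had mean signals on 1423642_at of 14819.5 ± 903 in knockout spermatids, 15082 ± 843 in wild type spermatids, 12765 ± 109 in knockout spermatocytes and 13055.5 ± 335 in wild type spermatocytes (SD, n = 2 arrays each), and this probe set was not called in any comparison. Of its dimmer probe sets, 1456470_x_at was called for the stage in the knockout (0.81, adjusted p = 0.000425) and in wild type (0.38, adjusted p = 0.036), and 1438622_x_at in wild type alone (0.48, adjusted p = 0.0389). Tube1, the epsilon-tubulin of centrioles, fell by 1.61 in knockout and by 1.36 in wild type spermatids on 1437942_x_at. Its other probe sets had -3.27 in knockout and -2.38 in wild type (1431873_a_at), and -2.26 and -2.51 (1443481_at). The probe sets thus disagree on the size of the fall and on the genotype where it was larger. Tubd1, the delta-tubulin, fell by 0.35 in both. Between the spermatid genotypes, Tubg2 was the only one of the 8 called on its brightest probe set, with 0.53 (adjusted p = 0.0454) at mean signals of 20.8 in knockout spermatids and 14.3 in wild type spermatids. A dimmer probe set of Tube1, 1431873_a_at, had -0.72 (adjusted p = 0.0374) at 25.0 in knockout spermatids and 41.2 in wild type spermatids.

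Of 26 genes that act in tubulin modification, 16 were higher and 4 were lower in wild type spermatids, where 33.7% and 29.4% of all genes were. The median log2 fold change was 0.92, beside 0.15 over all genes. Ttll7, a polyglutamylase, had 5.67, Vash2, which removes the C-terminal tyrosine of alpha-tubulin, had 5.53, and Ttll10, a polyglycylase, had 4.15. Hdac6, the tubulin deacetylase, had -1.94, Ttll1, a polyglutamylase subunit, had -1.62, and Ttll8, a glycylase, had -1.27. In knockout against wild type spermatids 0 were higher and 5 were lower, where 6.93% and 12.9% of all genes were. The largest of these were Agbl3 at -0.69 (adjusted p = 0.0101) and Agbl4 at -0.68 (adjusted p = 0.0116), both deglutamylases, and Lrrc49, a polyglutamylase subunit, at -0.64 (adjusted p = 0.00457). In spermatocytes, Vash2 was the only one called, with 1.12 in knockout over wild type (adjusted p = 0.0421).

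Of 26 genes of tubulin folding, 6 were higher and 12 were lower in wild type spermatids, beside the same 33.7% and 29.4% of all genes, with a median of -0.26. Vbp1, a prefoldin subunit, and Tbce, a cofactor that assembles the heterodimer, had 2.88 and 1.84, while Ttc5, which recognises nascent tubulin when tubulin mRNAs are degraded, had -4.00 and Pfdn2, another prefoldin subunit, had -3.02. Between the spermatid genotypes 1 was higher and 3 were lower, beside 6.93% and 12.9% of all genes, and 22 were not called. Ttc5 had 0.67 (adjusted p = 0.00706), with mean signals of 107 in knockout spermatids and 67.3 in wild type spermatids, and Tbce had -0.67 (adjusted p = 0.0108), with 632 in knockout and 1001.5 in wild type spermatids.

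Of 21 partners of gamma-tubulin, 8 were higher and 9 were lower in wild type spermatids, beside 33.7% and 29.4% of all genes. Haus7, an augmin subunit, and Nedd1, which anchors the ring complex, had 2.18 and 1.52, while the ring subunits Tubgcp5 and Tubgcp6 had -4.57 and -2.64. In knockout against wild type spermatids 3 were higher and 2 were lower, beside 6.93% and 12.9% of all genes. Pcnt, a centrosomal scaffold, had 0.83 (adjusted p = 0.00161), with mean signals of 1557 in knockout spermatids and 877 in wild type spermatids, and Tpx2, a spindle assembly factor, had -0.67 (adjusted p = 0.0061), with 576.5 in knockout and 918.5 in wild type spermatids.

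Among 36 severing and microtubule-binding genes, 13 were higher and 12 were lower in wild type spermatids, shares near the 33.7% and 29.4% of all genes. Map2 had 5.24, the sperm sheath gene Ropn1 5.03 and the plus-end gene Clip1 3.33, while Fignl1 had -3.08, Mapre1, another plus-end gene, -2.40 and Stmn1, which sequesters the heterodimer, -2.07. Between the spermatid genotypes 3 were higher and 7 were lower, beside 6.93% and 12.9% of all genes. The largest change was that of Camsap3, which binds microtubule minus ends, at 1.76 (adjusted p = 0.000876), with mean signals of 297 in knockout spermatids, 88.3 in wild type spermatids, 43.0 in knockout spermatocytes and 44.2 in wild type spermatocytes. Mapre2 had -0.78 (adjusted p = 0.00763) and Map7 -0.68 (adjusted p = 0.00426). In spermatocytes, Ropn1 was the only one called, with 0.90 in knockout over wild type (adjusted p = 0.0268).

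**Figure D4:**
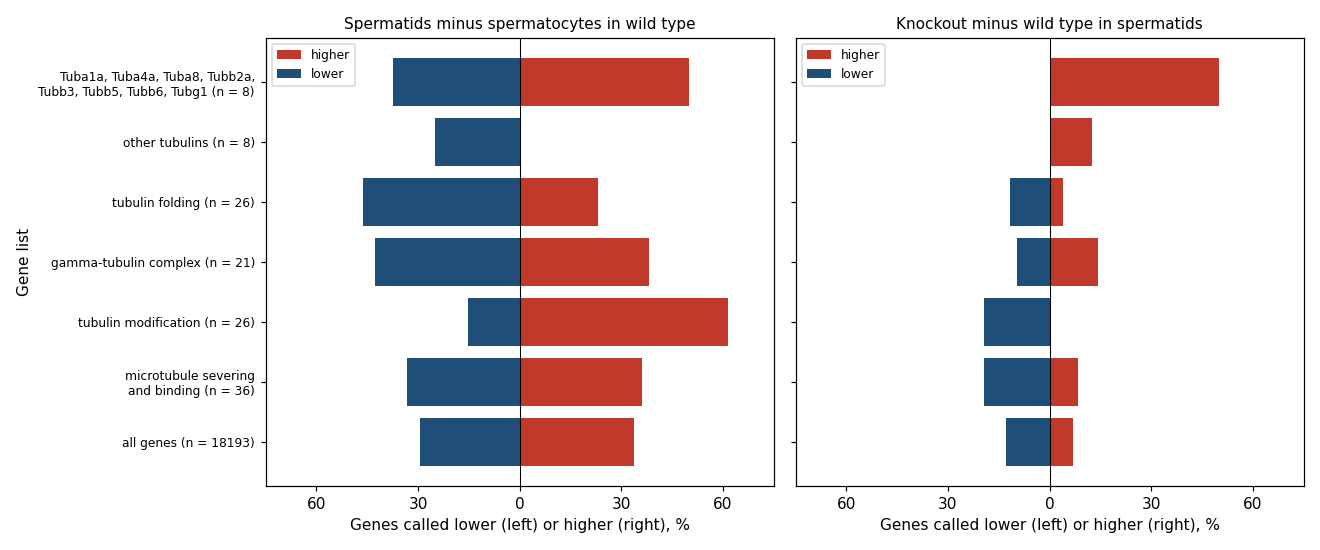
Share of genes called lower (left) and higher (right) in each gene list, for spermatids minus spermatocytes in wild type and for knockout minus wild type in spermatids. Of the 8 measured list members 4 were higher and 0 were lower in knockout spermatids, and of the 26 modification genes 0 were higher and 5 were lower. Of all genes 6.93% were higher and 12.9% were lower.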

How the data were processed

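RNA from round spermatids and late spermatocytes of Hr6b knockout and wild type mice, purified by StaPut sedimentation and a Percoll gradient, was hybridised to 8 Affymetrix arrays. The authors background-corrected, normalized and summarised the arrays with RMA, and the deposited values are on the log2 scale. They were used without further normalization, after leaving out 64 control probe sets. RMA compresses low signals, so fold changes against them are uncertain. By the platform annotation, 34945 probe sets name 1 gene, 932 several and 9160 none.

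All 8 arrays entered 1 linear model with 4 group means in limma 3.58.1 (R 4.3.3), with 4 residual and 5.85 prior degrees of freedom. Comparisons were contrasts of these means, with the Benjamini-Hochberg adjustment over 45037 probe sets and calls at an adjusted p under 0.05. The procedure was also run on simulated arrays with independent noise and known changes in knockout spermatids alone. That setting is simpler than these data, so it does not vouch for the calls. A gene is represented by its probe set of highest mean log2 value. Every single-gene probe set of the 10 tubulins is reported. Of each pathway list, genes of largest absolute change among those called were named, at most 3 in each direction, and of each tubulin with a mean signal of 100 or more in a group, the 3 most alike genes were found. Members and lists were chosen with earlier results of these data known. Precision is limited by 2 arrays in a group, where an exact permutation test cannot go below 0.333. Alternatives were other normalizations, a filter on low values, a trend in the prior, a replicate block, fewer arrays and the mean of all probe sets of a gene.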

Additional observations from a re-analysis of the deposited data

Results flagged for a closer look

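The effect of the knockout on Tubb3 (1415978_at) differed between the stages by an interaction test across all probe sets, with 1.20 log2 units more in spermatids than in spermatocytes (adjusted p = 0.0414 from limma). Both knockout spermatid arrays lay above both wild type spermatid arrays, whereas the knockout and wild type spermatocyte arrays overlapped, and all 8 signals were under 100.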

How the results depend on the processing

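Over all alternatives 9 to 14 probe sets passed for the stage in the knockout, with 9 where a filter on low signals left 10 of the 14. In wild type 9 to 12 passed, with 9 under that filter and also in alternatives that kept all 14, among them the exchanged replicate block below. The stage calls for the bright probe sets of Tuba4a, Tuba8, Tubb2a and Tubb6 were kept throughout. Leaving out each array in turn gave 2 to 6 probe sets for knockout minus wild type in spermatids, 0 to 2 in spermatocytes and 0 to 1 for the interaction, with the array left alone in its group assumed to vary like the other groups. In spermatocytes 0 passed with the 4 arrays of the comparison alone, and 0 genes passed with the mean of all probe sets of a gene. Quantile normalization and equal medians of expressed probe sets each gave 2 for the interaction, where 1417375_at of Tuba4a was added.

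With the replicate number as a block, 11, 10, 5, 2 and 1 probe sets passed for the stage in the knockout, the stage in wild type, the genotype in spermatids, the genotype in spermatocytes and the interaction, and 1417375_at of Tuba4a was lost in spermatids (adjusted p = 0.0547). Labels give these numbers no meaning. Differences between replicates correlated at -0.13 to 0.138 across groups, which with 2 arrays in a group cannot show whether arrays were paired. With the wild type spermatid numbers exchanged, chosen after seeing the data, the counts were 11, 9, 6, 2 and 1.

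Values that turned direction follow, and the cause was not tested. Under cyclic loess, quantile normalization and equal medians, Tubg1 had 0.35, 0.20 and 0.23 for the stage in wild type, and Tuba1a had 0.11, 0.033 and 0.053 for the genotype in spermatids and 0.23, 0.17 and 0.19 for the interaction. Tubb5 on 1455719_at had 0.17 for the stage in wild type with equal medians and -0.081 for the stage in the knockout under loess. Leaving out each array gave these ranges. For the stage in the knockout, Tubb5 on 1455719_at had -0.175 to 0.21. For the genotype in spermatids, Tuba1a had -0.32 to 0.060, Tubb5 on 1416256_a_at -0.028 to 0.38 and Tubb6 on 1446353_at -0.14 to 0.39. In spermatocytes, Tuba1a had -0.39 to 0.18, Tuba8 on 1446771_at -0.26 to 0.079, Tubb2a on 1427838_at -0.040 to 0.31 and Tubb6 on 1416431_at -0.10 to 1.02. For the interaction, Tuba1a had -0.31 to 0.26, Tuba4a on 1417373_a_at -0.57 to 0.016, Tuba8 on 1419518_at -0.13 to 0.16 and Tubb5 on 1455719_at -0.023 to 0.36.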
